A study of Mus musculus with 14 samples.

Results

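The nuclear-encoded subunits of oxidative phosphorylation were followed at the RNA level in the newborn mouse cortex. They were chosen by symbol: every GENCODE gene whose symbol begins with Nduf followed by a, b, c, s or v and a digit, with Uqcr, with Cox and a digit from 4 to 8, or with Atp5, together with Sdha, Sdhb, Sdhc and Sdhd. The rule gave 95 of the 51626 symbols in the tables, of which 84 are protein-coding, 10 are processed pseudogenes and 1, Ndufb1-ps, is annotated as a bidirectional-promoter lncRNA. By complex, 39 belong to complex I, 4 to complex II, 10 to complex III, 21 to complex IV and 21 to complex V. Atp5s was counted with complex V by its symbol only and is not a subunit. Ndufa4 and Ndufa4l2 carry a complex I name and were counted with complex IV, where the NDUFA4 protein sits. Symbols outside the rule, such as Cyc1, Cycs, Ndufab1, Usmg5 and Atpif1, were kept apart as a comparison list.

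The 14 libraries came from C57BL6/J mice at postnatal day 0.5. Frontal (rostral) cortex gave polyA-selected libraries from 4 wild type animals and from 4 Auts2 conditional knockout (cKO) animals, in which exon 15 of Auts2 was floxed on both alleles and Cre was driven from Emx1. Emx1-Cre acts in the progenitors of cortical excitatory neurons, so interneurons, microglia and vessels of the same tissue keep an intact Auts2. The wild type group carries neither the floxed allele nor Cre per the labels. None of the 14 libraries is labelled as having the floxed allele or Cre alone, so the effect of either alone was not tested. Whole cortex of wild type neonates, 2 pooled per replicate, was split for RNA immunoprecipitation (RIP) into a pull-down with an antibody to the AUTS2 C terminus, a pull-down with control IgG and a 10% input, as matched trios A and B. These 6 libraries were made from total RNA.

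Oxidative phosphorylation takes place in the inner mitochondrial membrane. Complex I oxidises NADH and complex II oxidises succinate, complexes III and IV pass the electrons on to oxygen, and complex V, the ATP synthase, uses the proton gradient so formed to make ATP. All complexes except II combine nuclear-encoded subunits with subunits made from mitochondrial DNA, and the nuclear genes are mostly small, abundant and active in every cell type, with high demand in neurons.

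The promoters of these genes are spread over many chromosomes, and factors such as NRF1, GABPA (NRF2), YY1, Sp1 and the estrogen-related receptor ERRA are known regulators of nuclear mitochondrial genes. Of the 95 symbols, 66 had a promoter window in the RefSeq table (build GRCm38.p6, 250 bases before to 50 bases from the start site), in 71 windows, and 32851 windows of all genes served as reference. Motifs were searched on both strands and no motif contains another, although matches of different motifs may overlap at their ends. The NRF1 motif (GCGC, any 2 bases and GCGC again) was in 19 member windows, 26.8% against 6.23% of all windows. The GABPA motif CCGGAAG was in 16, 22.5% against 8.86%. The YY1 motif ATGGCGG was in 11, 15.5% against 4.05%, and the ERRA motif AAGGTCA was in 8, 11.3% against 4.72%. The Sp1 motif GGGCGG was in 27, which is 38.0% against 35.7%. No match for any of the 5 motifs was found for 17 of the 66 symbols. For each complex the window printed here belongs to the member with the smallest p-value in the cKO comparison among those with a motif, so that the sequence can be read beside its values. Capitals mark motif matches, all windows lie on the minus strand, and each is written 5′ to 3′ in the direction of transcription; a match is a description of the letters and not evidence of binding.
Ndufa6 (complex I, chr15:82354242-82354541, minus strand, an NRF1 and an Sp1 match): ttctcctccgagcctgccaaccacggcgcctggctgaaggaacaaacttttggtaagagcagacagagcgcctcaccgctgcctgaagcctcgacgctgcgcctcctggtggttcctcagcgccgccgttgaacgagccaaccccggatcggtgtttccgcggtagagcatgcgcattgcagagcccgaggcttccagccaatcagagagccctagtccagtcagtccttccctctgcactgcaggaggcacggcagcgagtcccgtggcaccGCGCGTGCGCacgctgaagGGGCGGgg
Sdha (complex II, chr13:74350191-74350490, minus strand, 3 NRF1 matches): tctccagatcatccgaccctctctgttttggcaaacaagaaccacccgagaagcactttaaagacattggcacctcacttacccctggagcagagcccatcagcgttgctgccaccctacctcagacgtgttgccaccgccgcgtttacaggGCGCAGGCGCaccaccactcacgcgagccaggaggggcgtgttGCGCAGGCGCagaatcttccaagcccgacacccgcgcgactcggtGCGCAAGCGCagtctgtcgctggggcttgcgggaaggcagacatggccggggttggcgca
Uqcr11 (complex III, chr10:80406772-80407071, minus strand, a GABPA match): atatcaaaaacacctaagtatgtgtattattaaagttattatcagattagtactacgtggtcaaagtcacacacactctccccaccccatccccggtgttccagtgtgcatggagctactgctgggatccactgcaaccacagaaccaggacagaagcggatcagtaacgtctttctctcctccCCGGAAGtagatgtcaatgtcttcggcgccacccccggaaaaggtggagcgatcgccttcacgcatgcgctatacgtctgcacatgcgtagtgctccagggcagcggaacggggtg
Cox7a2 (complex IV, chr9:79759804-79760103, minus strand, an Sp1 match): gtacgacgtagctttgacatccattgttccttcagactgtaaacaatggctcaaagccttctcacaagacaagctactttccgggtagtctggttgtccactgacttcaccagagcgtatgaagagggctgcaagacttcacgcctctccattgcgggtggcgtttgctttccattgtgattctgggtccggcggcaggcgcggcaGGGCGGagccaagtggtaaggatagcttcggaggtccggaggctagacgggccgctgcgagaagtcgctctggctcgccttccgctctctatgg
Atp5k (complex V, chr5:108434350-108434649, minus strand, an NRF1, a GABPA and an ERRA match): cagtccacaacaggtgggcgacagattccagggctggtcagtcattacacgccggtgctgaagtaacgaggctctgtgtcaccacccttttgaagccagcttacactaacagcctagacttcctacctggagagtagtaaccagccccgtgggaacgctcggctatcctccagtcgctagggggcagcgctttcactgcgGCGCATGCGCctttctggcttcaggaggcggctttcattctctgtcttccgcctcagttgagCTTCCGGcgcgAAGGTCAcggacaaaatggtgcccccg

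Values are FPKM, fragments scaled by transcript length and by library size, summed over the transcripts of a symbol. Levels of different genes can be set side by side only roughly. A gene value depends on how reads were split over its transcripts, as for Atp5b below. The tables hold no counts, so the depth behind a value is unknown, as is its counting error. In bulk tissue, fewer cells of a type and less RNA per cell cannot be told apart. Excitatory neuron markers summed to 681 to 775 FPKM over the frontal cortex libraries and 442 to 537 FPKM over the pull-down and input libraries, with all 8 tested, while choroid plexus and meninges markers summed to 0.293 to 1.01 and 0.718 to 6.10 FPKM. Summed FPKM per library ran from 282029 to 340979. Auts2, the gene targeted in the cKO, stood at 87.7, 92.2, 55.9 and 60.2 FPKM in wild type 1 to 4 and at 29.8, 35.2, 30.4 and 34.5 FPKM in cKO 1 to 4, a log2 difference of -1.13 (SE 0.14, limma adjusted p = 0.0237). The 13 mitochondrially encoded subunits summed to at most 0.366 FPKM in any frontal cortex library and to 0 in the pull-down tables, so the partners of the nuclear subunits were not measured here.

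In wild type frontal cortex the members spanned from 404 FPKM to values listed at 0, with complex V and complex IV at the top. The mean of 17 members was at or above 100 FPKM, that of 57 was between 10 and 100, that of 3 between 1 and 10, and that of 18 below 1. Atp5b, the catalytic beta subunit of the ATP synthase, was first with 404 ± 8.79 FPKM (SD, n = 4 here and below), followed by its partner alpha subunit Atp5a1 with 271 ± 14.7 FPKM. The next were the c-ring gene Atp5g3 with 209 ± 3.91 FPKM, the complex IV subunit Ndufa4 with 199 ± 0.758 FPKM and Cox6b1 with 186 ± 8.32 FPKM. The wild type libraries of Atp5b lay between 396 and 415 FPKM and those of Atp5a1 between 255 and 289, so the first rank was clear of the spread, whereas Atp5g3 at 203 to 212 FPKM and Ndufa4 at 198 to 200 FPKM lay close together, and Cox6b1 at 178 to 197 overlapped with Cox6a1 at 162 to 194.

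Complexes differed in level. In wild type 1 complex V held 34.9% of the members' summed FPKM, complex I 27.9%, complex IV 23.3%, complex III 10.4% and complex II 3.52%, and these shares were nearly equal in all frontal cortex libraries. The shares are sums over unequal numbers of members, 39 in complex I and 4 in complex II. The median member of wild type 1 had 90.5 FPKM in complex V, 71.8 in IV, 64.4 in III, 50.2 in II and 46.5 in I. These medians were taken over all symbols of a complex, with pseudogenes and silent isoforms included. At least 1 FPKM was reached in wild type 1 by 17 of 21 symbols in complex V and 14 of 21 in IV. The same held for 8 of 10 in III, 4 of 4 in II and 36 of 39 in I. The order of V above IV therefore need not hold for the expressed members alone. Within complex II, the iron-sulfur subunit Sdhb had 73.2 FPKM and the flavoprotein Sdha 51.8 ± 2.94 FPKM. The membrane anchors had 49.2 (Sdhd) and 38.1 FPKM (Sdhc). The wild type libraries of Sdha at 49.2 to 54.9 FPKM overlapped with those of Sdhd at 46.9 to 51.4 FPKM. Within complex I the accessory subunit Ndufb9 was highest with 92.7 ± 5.39 FPKM and Ndufb4 lowest with 7.51 ± 0.681 FPKM, 2 genes named after their levels were seen. Of the 77 members with a mean of at least 1 FPKM over the frontal cortex libraries, the SD was 5.04% of the mean in the median wild type member.

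**Figure D1:**
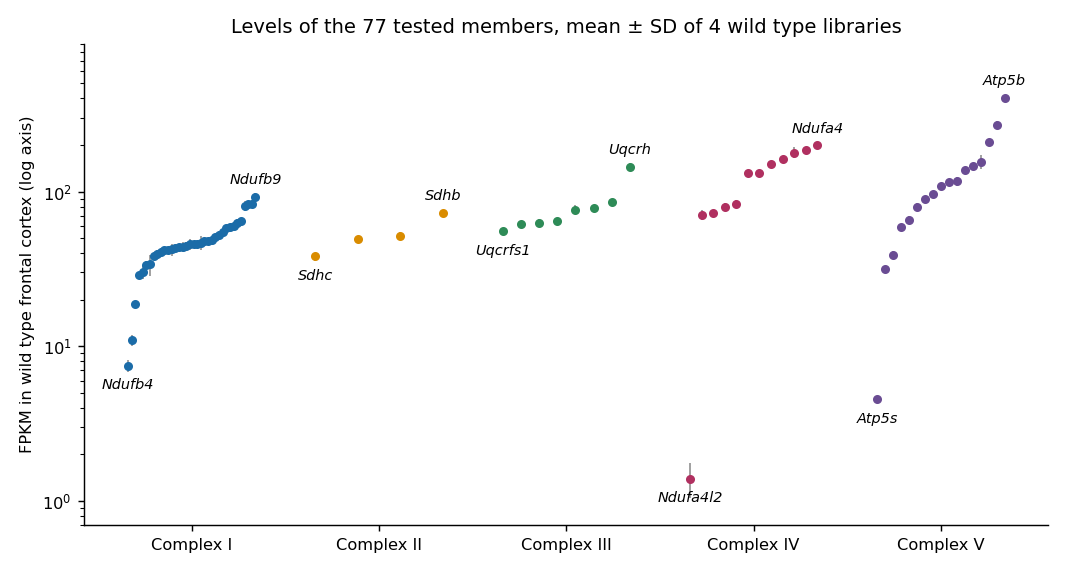
Mean FPKM (log axis) of the 77 tested members in wild type frontal cortex, by complex, with bars of 1 SD over 4 libraries. Atp5b is highest with 404 FPKM, Ndufa4l2 lowest with 1.39 FPKM, and complex II members lie within the range of complex I.

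Several subunits have isoforms that differ between tissues, and for those given here the form of most tissues had the higher level. An exact 0 in these tables can be a failed estimate. Cox6a1 had 179 FPKM against 0.542 for the heart and muscle form Cox6a2, and Cox6b1 had 186 against 0.96 FPKM for the testis form Cox6b2. Cox7a2 had 131 ± 5.36 and the supercomplex factor Cox7a2l 83.1 ± 4.95 FPKM against 0.567 for the muscle form Cox7a1. Cox8a had 152 ± 6.07 FPKM, while Cox8b and Cox8c were listed at 0. Ndufa4 stood at 199 FPKM against 1.39 ± 0.354 for Ndufa4l2, a gene known to be induced in hypoxia. The 3 genes for the same c-ring peptide differed, with 209 FPKM for Atp5g3, 59.2 for Atp5g1 and 31.5 for Atp5g2.

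Cox4i1, the main form of the regulatory subunit of complex IV (chr8:120668222-120674207, plus strand, with Emc8 on the opposite strand), had a listed value of 0 in each of the 8 frontal cortex libraries, and its lung form Cox4i2 one of 0.721 FPKM in wild type. Cox4i1 lay between 31.6 and 78.4 FPKM in the RIP, IgG and input libraries, so its 0 in frontal cortex cannot be read as absence. Tubb3, a neuronal tubulin, also had 0 there but between 256 and 354 FPKM in the RIP, IgG and input libraries. Cox4i1 therefore gives no value in the cKO comparison.

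In the cKO frontal cortex no member changed beyond the test, although nearly all had a slightly higher mean log2 value. With limma on log2(FPKM + 1) and Benjamini-Hochberg adjustment over 12786 genes, 0 of the 77 tested members passed an adjusted p of 0.05, against 0.0235% of all genes (0.00782% higher and 0.0156% lower), and 6 members (7.79%) had an unadjusted p under 0.05, against 7.91% of all genes. The log2 difference was above 0 for 75 members, 97.4% against 50.4% of all genes, with a median of 0.093 against 0.0013 for all genes. It was alike in each complex, with medians of 0.097 for complex I (36 of 36 above 0), 0.090 for complex II (4 of 4), 0.083 for complex III (8 of 8), 0.094 for complex IV (11 of 12) and 0.093 for complex V (16 of 17). Libraries with high Xist, which female cells express, were 1 of the 4 wild type (number 2, 217 FPKM) and 3 of the 4 cKO libraries (numbers 1 to 3, from 212 to 249.6 FPKM), while the others had at most 0.397 FPKM, so sex was unevenly spread over the groups. With the Xist state as a covariate 0 members were called, 74 were above 0 and the median was 0.086. The 2 members not above 0 were Atp5g2 with -0.04 and Ndufa4l2, whose difference was under 0.01 in size.

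The differences were largest in library cKO 1. It was the highest of the 8 libraries for 69 of the 77 members and stood above every wild type library for 75 of them, whereas cKO 2, cKO 3 and cKO 4 did so for 17, 25 and 43 members. Members deviated from their wild type mean by a median log2 of 0.259 in cKO 1, 0.006 in cKO 2, 0.032 in cKO 3 and 0.092 in cKO 4. The 1006 other genes with transcripts under 1000 bases deviated by 0.235, -0.011, 0.001 and 0.044, so the size in cKO 1 was shared with short transcripts at large. Without cKO 1 the members' median was 0.046 with 65 above 0, and with trends on transcript length and GC removed it was 0.038 with 61 above 0. In the same library, interneuron markers summed to 307 FPKM, against 174, 177 and 210 in cKO 2 to 4 and 145 to 180 in wild type, with all 6 tested and 5 of 6 above 0 in the comparison. Proliferation markers summed to 94.5 FPKM in cKO 1, to 66.6 to 68.0 in the other cKO libraries and to 68.6 to 77.4 in wild type. The part of these cell markers in the members' values was not tested.

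**Figure D2:**
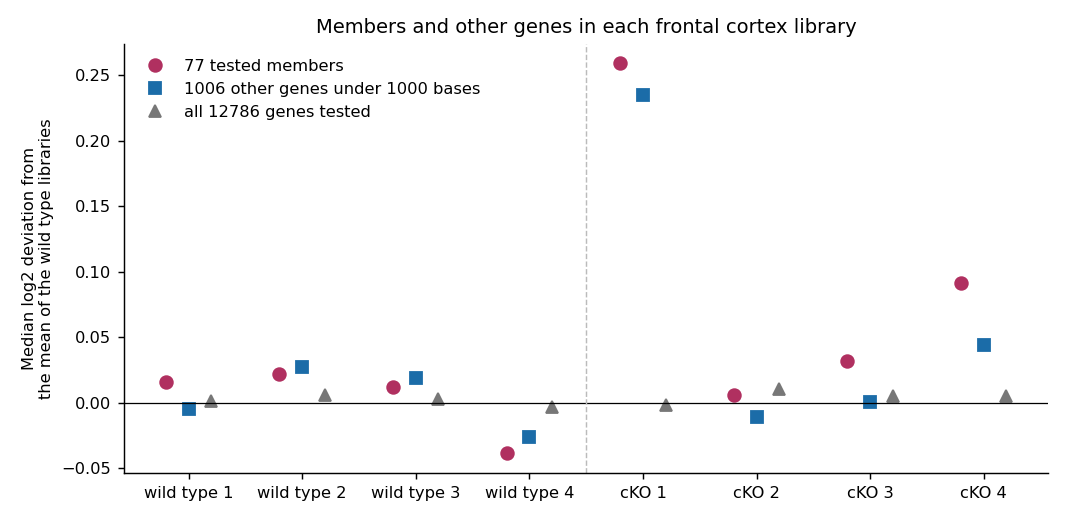
Median log2 deviation from the wild type mean in each of the 8 frontal cortex libraries, for the 77 members, for 1006 other genes with transcripts under 1000 bases and for all 12786 tested genes. Library cKO 1 stands apart for the members (0.259) and for the other short genes (0.235), and not for all genes (-0.002).

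In 8 members the lowest cKO library lay above the highest wild type library, 10.4% against 2.65% of all genes, and in 0 members the order was reversed, against 1.76% of all genes. These were Ndufa6, Ndufb2, Sdha, Uqcr11, Ndufa4, Atp5g1, Atp5g3 and Atp5s, none of which passed the test. Sdha, the flavoprotein that oxidises succinate, stood at 49.4, 49.2, 53.8 and 54.9 FPKM in wild type 1 to 4 and at 58.9, 57.1, 58.3 and 58.5 FPKM in cKO 1 to 4. Its 4 cKO values lay close together above all wild type values, and cKO 1 did not stand out. Wild type 1 and 2 lay below wild type 3 and 4, which were nearer to cKO. The libraries were grouped alike: wild type 1 and 2 correlated at 0.993 with each other and at 0.980 to 0.987 with the others. Wild type 3 and 4 correlated at 0.992 to 0.994 with cKO 2 to 4. The part of this split in the value of Sdha was not tested. The difference was 0.17 on the log2 scale (adjusted p = 0.628). Ndufa6, an accessory subunit of the matrix arm of complex I, stood at 41.5, 43.5, 45.1 and 41.8 FPKM in the wild type libraries and at 58.9, 50.2, 53.8 and 46.8 FPKM in cKO. The groups did not overlap, cKO 1 being highest and cKO 4 nearest to wild type, with a log2 difference of 0.28 (SE 0.08, adjusted p = 0.628). Uqcr11, a small subunit of complex III, stood at 63.3, 65.9, 68.4 and 62.1 FPKM in the wild type libraries and at 88.2, 70.2, 68.6 and 73.7 FPKM in cKO. Here cKO 3 was nearly equal to wild type 3, and cKO 1 was far above the other cKO libraries, at a difference of 0.20 (adjusted p = 0.628).

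Within complex V the c-ring genes gave differences of either sign. Atp5g1 stood at 58.6, 59.3, 60.9 and 57.9 FPKM in the wild type libraries and at 81.2, 64.6, 63.3 and 63.2 FPKM in cKO, a log2 difference of 0.19 with cKO 1 far above the other 3. Atp5g2 stood at 32.9, 31.9, 31.7 and 29.4 FPKM in the wild type libraries and at 38.2, 28.0, 26.1 and 31.2 FPKM in cKO, so cKO 1 was the highest and cKO 3 the lowest of all 8 libraries. Atp5s, a factor that couples the parts of the synthase and is not itself a subunit, had the largest difference among the members counted with complex V, 0.23. It stood at 4.39 to 4.86 FPKM in wild type and 5 to 5.94 FPKM in cKO. Atp5mpl, a small proteolipid of the membrane part and the complex V member with the smallest p-value, stood at 113, 116, 109 and 126 FPKM in the wild type libraries and at 137, 122, 131 and 132 FPKM in cKO. Wild type 4 lay above cKO 2, so the groups overlapped at a difference of 0.17. The catalytic Atp5b was at 409, 415, 398 and 396 FPKM in the wild type libraries and at 443, 409, 417 and 421 FPKM in cKO, a difference of 0.06 within overlapping groups. Cox7a2 and Atp5k, whose promoters are shown above, stood at 124 to 136 and 102 to 112 FPKM in the wild type libraries and at 132 to 157 and 105 to 137 FPKM in cKO, and both overlapped.

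The core of complex I holds the flavin and the iron-sulfur clusters, and its subunits reported here gave differences from 0.04 to 0.14. Ndufv1, the NADH-binding subunit, was at 61.0, 61.6, 58.9 and 55.2 FPKM in the wild type libraries and at 74.1, 58.4, 64.5 and 63.6 FPKM in cKO, with cKO 2 inside the wild type range. Uqcrfs1, the Rieske protein of complex III, was at 53.0 to 56.9 FPKM in wild type and 55.5 to 61.7 FPKM in cKO. None of the core subunits of complexes I to V passed the test, Cox4i1 being listed at 0.

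Against IgG, 9 members passed the test in the AUTS2 pull-down, 3 higher and 6 lower. Of 79 members tested among 14570 genes, the 3 higher members are 3.8% against 13.7% of all genes, and the 6 lower members are 7.59% against 9.69%. The log2 difference was above 0 for 37 members, 46.8% against 51.3%, with a median of -0.078 against 0.021 for all genes. The direction turned with length and GC trends removed, where 5 members were higher and 2 lower and the median was 0.094. In 15 members both RIP values lay above both IgG values, 19% against 34.3% of all genes, and in 26 they lay below, 32.9% against 30.2%. Each group has 2 libraries, and without IgG A limma called 0 members and 0 genes of the whole table, with 28 of 78 members at an unadjusted p under 0.05.

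The higher members all belong to the catalytic parts of complexes I and II. Sdhb, the iron-sulfur subunit of complex II (chr4:140961203-140979193, plus strand), stood at 21.1 and 22.2 FPKM in AUTS2 RIP A and B and at 11.4 and 9.84 FPKM in IgG A and B. The groups were well apart, with a log2 difference of 0.97 (SE 0.16, adjusted p = 0.00948). Its partners did not go with it: Sdha was at 51.3 and 48.1 FPKM against 49.4 and 43.0 (0.11, adjusted p = 0.57), Sdhc at 4.43 and 5.78 against 9.68 and 6.31 (-0.54, adjusted p = 0.19) and Sdhd at 5.46 and 4.98 against 9.48 and 8.03 FPKM (-0.65, adjusted p = 0.0665). Ndufs7, which holds the last iron-sulfur cluster before the quinone (chr10:80249121-80256794, plus strand), stood at 11.4 and 12.2 FPKM against 2.69 and 5.01 FPKM, a log2 difference of 1.44 (SE 0.28, adjusted p = 0.0162). Ndufv1 (chr19:4007384-4012806, minus strand) stood at 30.3 and 34.8 against 19.3 and 22.9 FPKM, a difference of 0.60 (adjusted p = 0.0334). Of the 7 core subunits of complex I, 6 were above 0 and 2 were called. Without either RIP library none of the 3 remained called, and without IgG B only Sdhb and Ndufs7 did, with adjusted p = 0.0472 and 0.0416.

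The lower members lay in complex IV, complex III and the accessory part of complex I. Cox6c, a small membrane subunit of complex IV (chr15:35925886-35938246, minus strand, opposite to Vps13b), stood at 34.6 and 43.8 FPKM in RIP and at 95.8 and 81.6 FPKM in IgG, and fell by 1.16 on the log2 scale (adjusted p = 0.0053). Cox8a, another small membrane subunit of the complex (chr19:7215153-7217616, minus strand), stood at 37.9 and 41.4 against 76.2 and 70.9 FPKM and fell by 0.88 (adjusted p = 0.00518). In both genes each IgG value lay far above each pull-down value. Among all settings and left-out libraries, both calls were lost only without IgG A, at adjusted p = 0.0599 and 0.0516. Cox6c2, a processed pseudogene copy of Cox6c (chr12:56373593-56373823, minus strand), stood at 0 and 2.12 against 11.2 and 5.84 FPKM (-2.37, adjusted p = 0.0316), and reads of the 2 genes may be shared. Its call was lost with no filter, with the trio as a block (adjusted p = 0.0626) and with length and GC trends removed (adjusted p = 0.0596). Of the 14 complex IV members, 2 were above 0, 3 were called lower, and the median was -0.295. Uqcrb, the ubiquinone-binding protein of complex III (chr13:66900617-66905378, minus strand), stood at 9.42 and 11.0 against 15.8 and 20.1 FPKM, a fall of 0.75 (adjusted p = 0.0349) that shrank to -0.25 (adjusted p = 0.401) once length and GC trends were removed. Ndufb2 stood at 3.97 and 2.60 against 7.05 and 7.04 FPKM (-0.93, adjusted p = 0.0435), and Ndufa9, named after its values were seen, at 12.5 and 13.6 against 19.3 and 21.7 FPKM (-0.61, adjusted p = 0.0349). Ndufv1, Uqcrb, Ndufb2 and Ndufa9 lost their calls without each library in turn, and also without trend and robust settings, with no filter and with length and GC trends removed, where their adjusted p ran from 0.0593 to 0.401.

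Complex V had 0 of 17 members called against IgG, with a median of 0.036. All 5 subunits of its F1 head were above 0, with a median of 0.23. Atp5b stood at 418 and 337 FPKM in RIP and at 318 and 254 FPKM in IgG, 0.40 on the log2 scale (adjusted p = 0.11), and passed with the trio as a block (adjusted p = 0.0234), as did Cox7a2l and Ndufa6 on the lower side (adjusted p = 0.0189 and 0.033). Both RIP values of Atp5b were above both IgG values, and A was above B in either group. Atp5h, of the peripheral stalk, stood at 55.2 and 69.7 against 52.2 and 37.8 FPKM (0.47, adjusted p = 0.123). Uqcrc1, counted here with the accessory subunits of complex III, stood at 55.7 and 39.7 against 28.3 and 36.2 FPKM (0.54, adjusted p = 0.101).

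Against the input, most members fell in the pull-down. Of 80 members tested among 14458 genes, 49 were lower, 61.3% against 16.6% of all genes, and 3 were higher, 3.75% against 19.3%. The median log2 difference was -0.988 against -0.016 for all genes, and both RIP values lay below both input values in 62 members, 77.5% against 35.2%, and above them in 8 members, 10% against 35.9%. The members held 0.627% and 0.626% of the FPKM of RIP A and B and 1.07% and 0.997% of that of input A and B. Their share was 0.698% and 0.644% in IgG A and B, so the control pull-down also lay below the input. IgG against input was not tested. The comparison shares its RIP libraries with that against IgG, so the values of both are given side by side and are not independent of each other. Of the 49 lower members 33 stayed lower under every alternative setting that tested them, 36 did so with length and GC trends removed, and 21 in each fit without 1 library, with 20 in all of these. Of the members described here, the 20 include Cox6c, Cox8a, Cox7a2l, Cox4i1, Cox5b, Uqcrb, Uqcr11, Ndufb6, Ndufa5, Ndufa6 and Atp5l, and the other lower members lost their call in at least 1 fit.

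Complex IV fell almost as a whole, with 12 of its 13 tested members called lower and a median of -1.39, the pseudogene Cox6c2 included. Cox6c stood at 35.2 and 44.5 FPKM in RIP and at 173 and 170 FPKM in input, and fell by 2.09 on the log2 scale (adjusted p = 0.000722). Cox8a stood at 38.5 and 42.0 against 149 and 145 FPKM and fell by 1.85 (SE 0.10, adjusted p = 0.000677). Cox7a2l (chr17:83501918-83517330, minus strand), which joins complexes III and IV in supercomplexes, had the largest fall of a coding member, 2.27 (adjusted p = 0.00152), with 5.44 and 8.54 against 35.1 and 38.7 FPKM. The regulatory Cox4i1 stood at 34.2 and 32.1 against 78.4 and 72.8 FPKM (-1.17, adjusted p = 0.00133) and Cox5b at 40.1 and 34.5 against 73.9 and 65.9 FPKM (-0.89, adjusted p = 0.00436). The member that did not pass was Cox5a, at 8.43 and 7.11 against 21.0 and 11.3 FPKM (-0.91, adjusted p = 0.0611, and 0.0229 with the trio as a block), where input A was far above input B. As shares within a library, complex IV held 24.7% and 24.8% of the members' FPKM in input A and B, 19.7% and 22.5% in IgG and 13.2% and 14.7% in RIP.

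In complex III 6 of 9 tested members were lower, the pseudogene Uqcrh-ps1 included. Uqcrb stood at 9.59 and 11.2 against 54.9 and 51.1 FPKM (-2.25, adjusted p = 0.000722) and Uqcr11 at 10.4 and 9.89 against 35.0 and 35.6 FPKM (-1.70, adjusted p = 0.000989), each with replicates close together and groups far apart. The Rieske protein Uqcrfs1 fell by 0.91 (adjusted p = 0.00704), from 24.1 and 23.7 in input to 13.3 and 11.3 FPKM. Uqcrc1 and Uqcrc2 are core proteins by name but were counted here with the accessory subunits, and Uqcrfs1 as core. Neither Uqcrc1 nor Uqcrc2 passed. Uqcrc1 stood at 56.7 and 40.3 against 36.1 and 34.0 FPKM (0.44, adjusted p = 0.105), and Uqcrc2 at 5.80 and 7.80 against 9.84 and 6.07 FPKM (-0.18, adjusted p = 0.644).

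In complex I the medians differed by the role of the subunit, while values spread widely within each role. Of its 19 accessory subunits in the membrane arm 13 were lower, with a median of -0.96, and of its 9 in the matrix arm 5 were lower and 1 higher, with a median of -1.23. Of the 7 core subunits 2 were lower and 1 higher, with a median of -0.06. Ndufb6 (chr4:40270591-40279421, minus strand, opposite to Smim27) fell most, with 3.71 and 3.02 against 17.2 and 19.6 FPKM (-2.15, adjusted p = 0.00128), and Ndufa5 stood at 9.75 and 10.3 against 52.1 and 33.4 FPKM (-1.96, adjusted p = 0.00231). Ndufa6 stood at 13.1 and 17.3 against 50.5 and 55.2 FPKM (-1.74, adjusted p = 0.00143). Among the core subunits, Ndufs3 at 10.7 and 11.8 against 22.4 and 17.3 FPKM (-0.75, adjusted p = 0.0238) and Ndufv2 at 15.1 and 20.1 against 41.5 and 26.6 FPKM (-0.90, adjusted p = 0.0358) were lower, and Ndufs1, Ndufs7 and Ndufs8 did not pass. Whether core and accessory subunits differ from each other was not tested.

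The 3 members above the input were Ndufv3, Ndufv1 and Sdhb. Ndufv3, a small subunit of the NADH-oxidising module (chr17:31520115-31531331, plus strand), stood at 47.1 and 57.8 FPKM in RIP against 26.1 and 33.2 FPKM in input, a log2 difference of 0.80 (SE 0.17, adjusted p = 0.015), and at a difference of 0.61 against IgG (adjusted p = 0.0765). Ndufv1 stood at 30.9 and 35.4 against 24.8 and 22.9 FPKM (0.45, adjusted p = 0.0438) and Sdhb at 21.5 and 22.5 against 16.3 and 15.1 FPKM (0.46, adjusted p = 0.0465). The RIP values of all 3 lay above both input values, yet with the trio as a block Ndufv1 and Sdhb did not pass (adjusted p = 0.0529 and 0.0658). Without RIP A, RIP B or input A none of the 3 passed, and without input B only Ndufv3 did (adjusted p = 0.0425). Sdhb and Ndufv1 were also called against IgG, with the same RIP libraries. In complex II the flavoprotein Sdha at 52.2 and 48.9 against 46.3 and 38.3 FPKM did not pass (0.26, adjusted p = 0.178), while the anchors were lower, Sdhc at 4.51 and 5.87 against 14.2 and 14.8 FPKM (-1.33, adjusted p = 0.0048) and Sdhd at 5.56 and 5.05 against 19.7 and 9.93 FPKM (-1.26, adjusted p = 0.0282).

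The medians of the ATP synthase subunits also differed by place, while values spread widely within a place, and this was likewise not tested as a contrast. Of its 5 F1 subunits only Atp5e, the epsilon subunit, was lower, at 5.82 and 7.19 against 17.6 and 24.1 FPKM (-1.53, adjusted p = 0.0041). Atp5b stood at 426 and 342 against 421 and 446 FPKM (-0.18, adjusted p = 0.275), Atp5a1 at 79.2 and 69.8 against 71.9 and 64.6 FPKM (0.12, adjusted p = 0.438) and Atp5c1 at 52.7 and 55.8 against 63.3 and 54.2 FPKM (-0.11, adjusted p = 0.508). The c-ring genes differed again: Atp5g1 stood at 3.38 and 1.92 against 9.34 and 8.65 FPKM and was lower (-1.48, adjusted p = 0.00897), Atp5g2 at 2.37 and 3.54 against 6.31 and 5.11 FPKM did not pass (-0.77, adjusted p = 0.065), and Atp5g3 at 56.7 and 50.9 against 50.02 and 44.1 FPKM did not pass (0.19, adjusted p = 0.268). The membrane subunit Atp5l fell most, with 3.68 and 4.34 against 18.5 and 15.5 FPKM (-1.84, adjusted p = 0.00185).

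**Figure D3:**
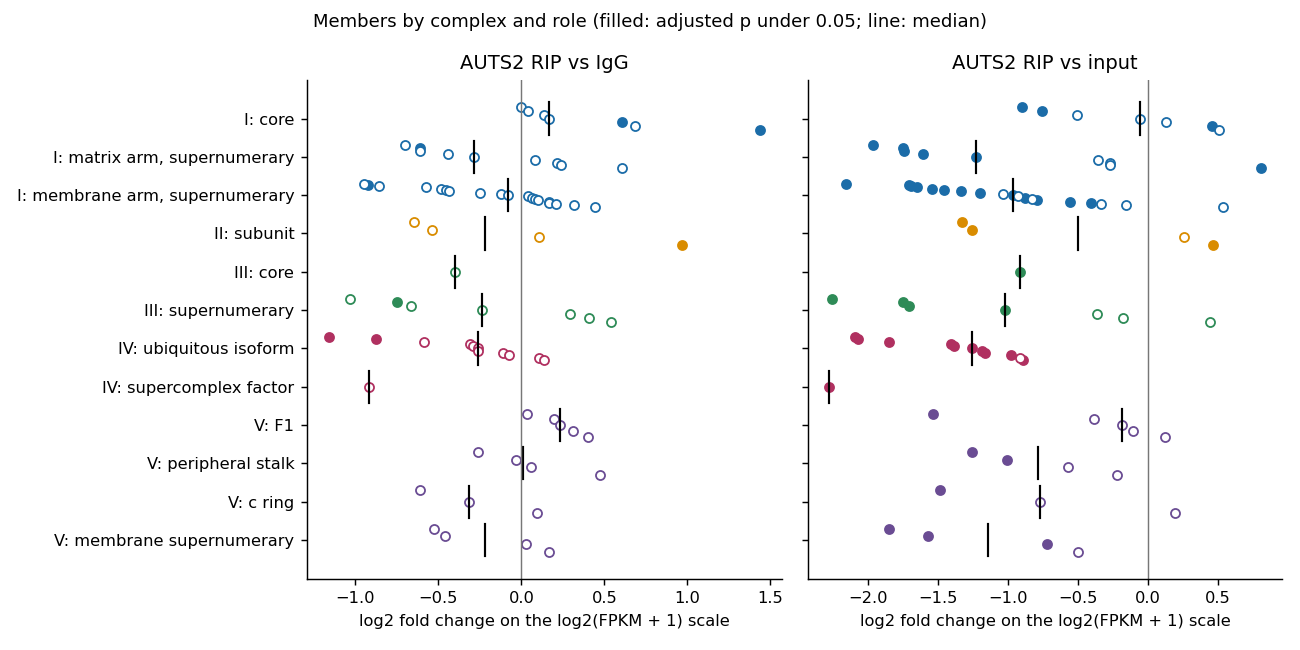
Log2 difference of the AUTS2 RIP minus IgG and minus input for the tested coding members of 12 roles, by complex, with filled points for an adjusted p under 0.05 and a line at each median. The x ranges of the panels differ; against input the median of the 11 complex IV subunits in their ubiquitous form is -1.26, and that of the F1 head of the synthase is -0.18.

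Pseudogene members were mostly near 0. Cox6c2 stood at 0 and 2.15 FPKM in RIP against 12.2 and 9.34 in input and was lower (adjusted p = 0.0129). Uqcrh-ps1, also called lower, was listed at 0 in both RIP libraries against 2.09 and 2.66 FPKM in input. Ndufb1-ps (chr12:101968090-101977068, minus strand, opposite to Cpsf2) stood at 1.44 and 4.16 against 13.7 and 10.0 FPKM (-1.84, adjusted p = 0.0155). In frontal cortex the processed pseudogenes together held 0.02% to 0.03% of the members' FPKM. Among the coding members, 14 have a copy elsewhere with at least 95% identity over much of the transcript, for example Atp5g1 with Gm10039, Cox7c with Gm10012 and Ndufs5 with BC002163, and the values of these 14 depend on how reads were split.

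The members are short: their median transcript length, weighted by FPKM, was 751 bases in the input comparison against 2408 bases for all genes, and the median of all short genes was also below 0. For transcripts under 600 bases the median log2 difference to input was -1.55 over 24 members and -0.78 over all genes, and from 600 to 1000 bases it was -0.91 over 33 members and -0.42 over all genes. From 1000 to 1500 bases it was -0.73 over 14 members and -0.20 over all genes, and from 1500 to 2500 bases -0.18 over 9 members and -0.04 over all genes. All genes above 2500 bases had a median of 0.19. Across the 80 members, which share the same 4 libraries, length and the log2 difference went together with r = 0.477 and rho = 0.477. With length and GC trends removed the members' median was -0.59, against -0.988 without this step, and against IgG it was 0.094 in place of -0.078.

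**Figure D4:**
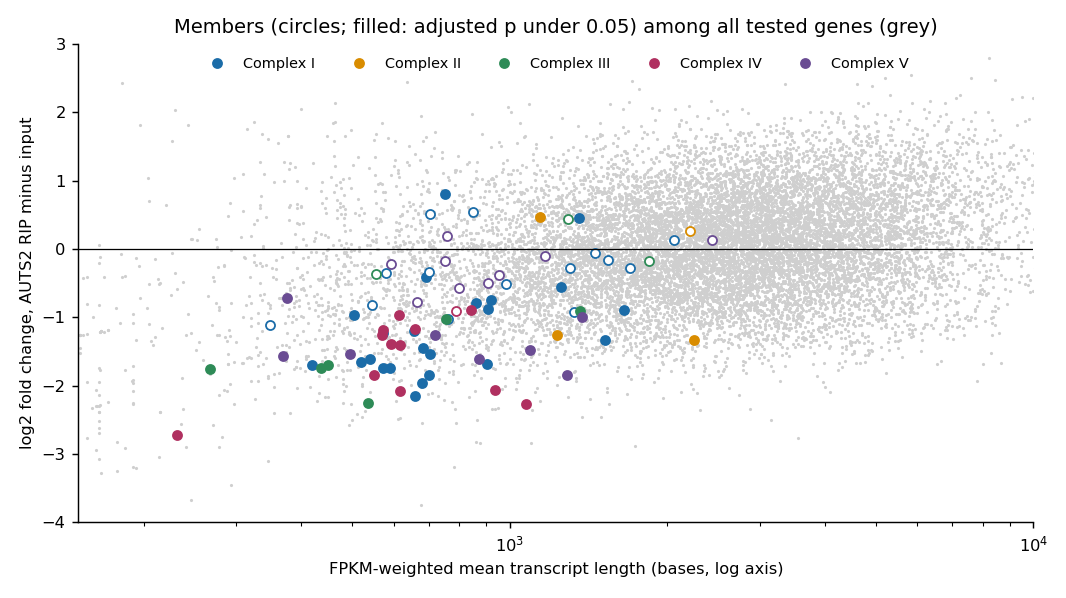
Log2 difference of AUTS2 RIP minus input against the FPKM-weighted mean transcript length (log axis, bases), with all tested genes in grey and the members in colour. Members are shorter than most genes, and those under 600 bases lie lowest, with a median of -1.55; 558 of 14458 genes and 0 members lie outside the axes.

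The transcripts behind the gene values differed between the polyA libraries of frontal cortex and the total RNA libraries of whole cortex, which come from tables scaled separately. Protein-coding transcripts held 94.4% to 95.04% of the members' FPKM in frontal cortex, 72.5% to 76.9% in RIP and IgG and 78.4% to 80.9% in input, and processed transcripts, which carry no open reading frame, held 1.75% to 2.31%, 11.9% to 19.8% and 11.0% to 13.5%. Of 182 member transcripts tested against input, 25 were lower, 13.7% against 2.36% of all transcripts, and 0 were higher against 4.48%. Of these 25, 23 are protein-coding, among them Cox8a-201, Uqcrb-201 and Cox6c-201 with adjusted p = 0.0298 each. With the trio as a block 0 passed, with 69 at an unadjusted p under 0.05, and without any 1 of the 4 libraries 0 passed, with 43 to 69 at an unadjusted p under 0.05. Against IgG 0 of 170 member transcripts and 0% of all transcripts passed, with 28 (16.5% against 22.6%) at an unadjusted p under 0.05. In the cKO comparison 0 of 183 passed, against 0.00374% of all transcripts higher and 0% lower, with 7 (3.83% against 5.66%) at an unadjusted p under 0.05.

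Atp5b (chr10:128083273-128090391, plus strand, with the snoRNA gene Snord59a at chr10:128084143-128084216 inside it) is an example, and its transcripts were chosen after their values were seen. In frontal cortex its coding transcript Atp5b-201 (1916 bases) stood at 361 to 403 FPKM and the processed transcript Atp5b-207 (343 bases) at 6.49 to 18.2 FPKM. Among the pull-down and input libraries Atp5b-207 stood at 255 and 215 FPKM in RIP, 228 and 152 in IgG and 247 and 283 in input, above Atp5b-201 with 99.6 and 82.8 in RIP, 63.9 and 78.4 in IgG and 116 and 89.5 in input. The high level of Atp5b in these libraries was thus largely that of a short non-coding entry, and in FPKM a fragment of a short transcript counts for more than a fragment of a long one.

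**Figure D5:**
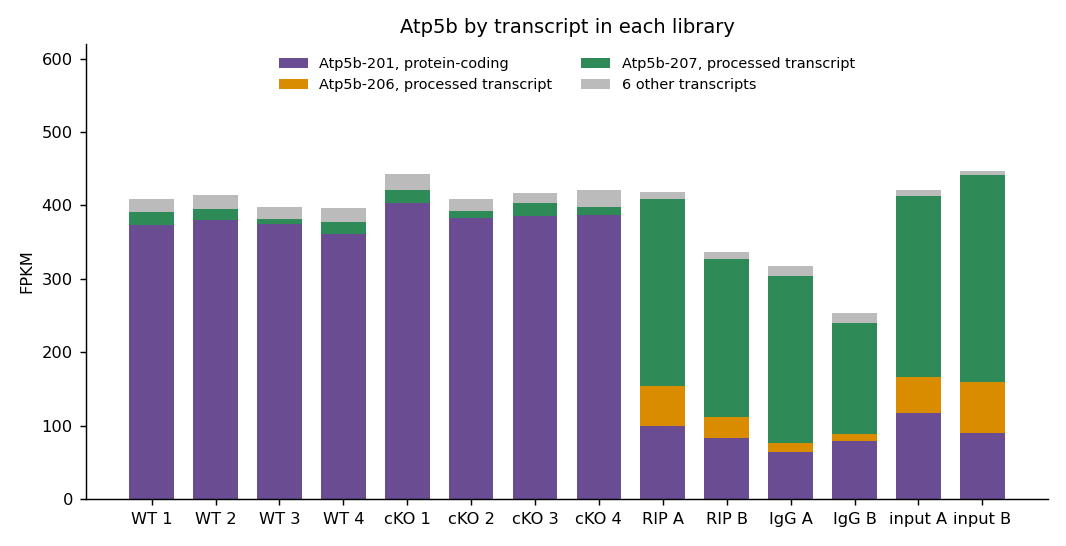
FPKM of Atp5b by transcript in each library, as stacked bars from 0, with RIP from the table with IgG and input from the table with input. The coding transcript Atp5b-201 fills most of each frontal cortex bar, and Atp5b-207 most of each pull-down and input bar.

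Other members rested on more than one transcript as well, all named after their values were seen. For Ndufs7 the coding transcript Ndufs7-201 (758 bases) stood at 25.3 to 39.6 FPKM in frontal cortex and was listed at 0 in the pull-down tables, where the gene value rested mainly on a processed transcript of 722 bases, at 9.15 and 8.77 FPKM in RIP, 2.69 and 2.89 in IgG and 11.0 and 5.98 in input. The coding transcripts of Ndufs7 alone were too low in the pull-down tables to be tested. For Ndufv3 the long coding Ndufv3-201 (1582 bases) stood at 12.4 and 14.6 FPKM in RIP against 4.62 and 5.64 in input (1.24, adjusted p = 0.0515), while the short Ndufv3-202 (493 bases) stood at 21.5 and 26.4 FPKM in input and at 29.2 and 39.4 in the RIP columns of the IgG table. For Ndufa9 the transcripts went apart against IgG, with Ndufa9-201 at 5.79 and 4.03 FPKM in RIP against 0 and 0.004, and Ndufa9-203 at 5.74 and 8.67 against 19.3 and 21.0 FPKM (-1.39, adjusted p = 0.0802). For Atp5f1, of the peripheral stalk, the fall against input (-1.003, adjusted p = 0.0025) was that of Atp5f1-203, a nonsense-mediated decay transcript, at 17.8 and 20.9 against 45.7 and 61.1 FPKM (-1.41, adjusted p = 0.0418), and with coding transcripts alone the difference was 1.25 (SE 1.16, adjusted p = 0.427). That value rests on input B, where the coding Atp5f1-201 stood at 0.023 FPKM against 14.8 in input A, with 11.7 and 6.22 FPKM in RIP.

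Other mitochondrial genes give the surroundings. In the cKO comparison 52 of 78 mitochondrial ribosomal protein genes were above 0 (median 0.067), as were 34 of 47 assembly factors of the complexes (0.064), 15 of 16 genes of pyruvate dehydrogenase and the TCA cycle (0.073), 7 of 16 genes of glycolysis (-0.010) and 5 of 15 regulators of mitochondrial gene expression (-0.037), with 0 called in each list. Against input, 19 of 78 mitochondrial ribosomal protein genes were lower and 2 higher (median -0.359), and 11 of 45 assembly factors were lower and 3 higher (-0.228). Of 16 TCA cycle genes 2 were lower and 3 higher (0.003), and of 17 glycolysis genes 1 was lower and 6 higher (0.133). Against IgG, 6 of 17 glycolysis genes were higher and 0 lower (0.320), with 4 and 0 of 78 for the ribosomal list (0.056). Of all genes, 16.6% were lower and 19.3% higher against input, and 9.69% lower and 13.7% higher against IgG. In the cKO comparison 0.0235% of all genes were called. Whether any list differs from all genes was not tested.

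Among the regulators 4 of 16 were higher against input and 2 lower, where 19.3% of all genes were higher and 16.6% lower. Polrmt, the mitochondrial RNA polymerase, rose by 1.47 against input (24.1 ± 0.00882 against 8.11 ± 1.67 FPKM, n = 2 each) and by 1.36 against IgG, and Pprc1, a coactivator of the PGC-1 family, by 1.26 and 0.82, all with an adjusted p under 0.05. Tfam, which packages mitochondrial DNA, was lower against input (-0.94, adjusted p = 0.0315). Of the subunits and carriers outside the symbol rule, Atpif1, the inhibitor of the ATP synthase, rose to 676 ± 5.36 FPKM in RIP against 266 ± 24.1 in input (1.34, adjusted p = 0.000765) and was at 665 ± 6.56 against 350 ± 70.5 FPKM in IgG (0.94, adjusted p = 0.00808). Usmg5, a small synthase subunit, fell to 4.35 ± 2.10 against 17.3 ± 3.63 FPKM in input (-1.82, adjusted p = 0.00824), and the electron carrier Cycs to 3.14 ± 0.175 against 8.67 ± 0.536 FPKM (-1.22, adjusted p = 0.00692). Against IgG the sign of Usmg5 was the opposite, with the highest difference of this list, 1.74, while Cycs had the lowest, -0.85. Neither passed against IgG. Cyc1 and Ndufab1 did not pass.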

How the data were processed

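The deposited tables give FPKM per GENCODE transcript, per the file headers, and the submitters' processing notes list Cuffdiff 2.2.1, STAR 2.5, SAMtools and GRCm38.p4 (mm10). On strand settings and filters, nothing is given in the sources used here. The RIP columns of the IgG and input tables differed by a median factor of 1.018 (A) and 1.015 (B), so each table was fitted alone. Of 128508 transcripts 127975 matched an entry of the later GENCODE annotation, from which names, types and positions (GRCm38) were taken. Library cKO 4 was matched by its library number, since its label and its column give different short names.

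FPKM were summed per symbol. Genes averaging 1 FPKM or more were tested on log2(FPKM + 1), a scale that understates the change of low genes, with limma 3.58.1 in R 4.3.3 (trend and robust settings, two-sided, Benjamini-Hochberg threshold 0.05). Tables were made with Python 3.11.15 and copies searched with blastn 2.17.0. The fits were tested on simulated data. A gene is called where its adjusted p is under 0.05.

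Members and lists were chosen with earlier results of these data known. Named are the core subunits, the 2 highest and 2 lowest differences and the smallest p of each complex, the isoform sets, members under 1 FPKM or non-coding, Auts2, and the smallest p of each transcript type. A gene that this rule selects is not reported here. Members named for their level, for groups that do not overlap, for an outlying library or for their transcripts, the lists' named genes and Tubb3 were chosen after values were seen, as was the alternative with protein-coding transcripts only. The other alternatives were pseudocounts of 0.1 and 5, a filter of 5 FPKM or none, quantile and median-ratio scaling, plain limma, a replicate block, length and GC trends, an Xist covariate and leaving out each library.

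The series design gives RIP, IgG and input as matched trios, so the letters A and B pair the samples; the deviations of same-lettered libraries correlated at 0.00879 (RIP with IgG) and 0.012 (RIP with input).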

Additional observations from a re-analysis of the deposited data

Results flagged for a closer look

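In the frontal cortex groups of 4, a library was set apart where its gap to the nearest other library was too large a part of the group's range by Dixon's 95% critical value. Of 83 series per group (77 members and 6 sums), 3 in wild type and 7 in cKO met this, and chance does so in about 1 in 20 groups. In wild type, library 4 was lowest for the complex I accessory subunits Ndufb8 (76.3 FPKM) and Ndufc2 (79.9 FPKM) and for the complex III subunit Uqcr10 (69.3 FPKM). In cKO, library 1 was highest for the ATP synthase genes Atp5c1 (156 FPKM), Atp5f1 (116 FPKM) and Atp5g1 (81.2 FPKM), for the complex I subunits Ndufa11 (14.3 FPKM) and Ndufb11 (59.2 FPKM) and for Sdhb of complex II (86.8 FPKM). Library cKO 3 was lowest for Cox5a of complex IV (121 FPKM). Of the 10, 6 are thus cKO 1 standing above the other cKO libraries. Atp5c1, Atp5f1, Atp5g1, Ndufa11, Ndufb11 and Sdhb all lie in the direction of the members' median deviation of 0.259 in that library.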

How the results depend on the processing

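In the cKO comparison 0 members were called under every setting and without each library (limma, with 2 to 14 members at an unadjusted p under 0.05), and the median ran from 0.046 to 0.124 over the left-out libraries; the replicate block gave 0 called and a median of 0.093. The numbers 1 to 4 share only a number there, with correlations of 0.176, 0.017, -0.039 and 0.066 between same-numbered libraries. With the trios as a replicate block 11 members were called against IgG (4 higher, 7 lower) and 54 against input (2 higher, 52 lower), with Ndufb2, Ndufb7 and Uqcrh also gained against input and Cox6c2 lost against IgG.

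Against IgG the 9 called members became 5 without trend and robust settings and 4 with no filter. The 6 lower members became 3 and 2 under these settings, 2 with length and GC trends removed and 3 with the block added, while the 3 higher members became 5 and 5 with these trends removed, and the median -0.078 became 0.094 in both. Without each library in turn the counts ran from 0 to 6 called, 0 to 2 higher and 0 to 4 lower, with medians from -0.18 to -0.02. Against input the median -0.988 became -1.09 with a pseudocount of 0.1, -0.76 with 5, -1.06 with quantile scaling, -0.93 with no filter and -0.59 with length and GC trends removed, with or without the block. The 3 higher members became 1 with quantile scaling, 0 without trend and robust settings and 1 with no filter. Without each library the counts ran from 26 to 38 called, 0 to 2 higher and 26 to 37 lower, with medians from -1.16 to -0.88. Of transcripts, 7 were called against IgG with a filter of 5 FPKM. Against input the 25 (all lower) became 13 (13 lower) with a pseudocount of 0.1, 38 (2 higher, 36 lower) with a filter of 5 FPKM, and 0 with the block, without trend and robust settings and without each library (0 to 0), with 1 higher at a pseudocount of 5. The cause of these shifts was not tested. Atp5f1 against input went from -1.003 to 1.25 (SE 1.16, adjusted p = 0.427) with protein-coding transcripts only, a value that rests on input B and is not past the test. Fits without a library leave 1 sample in a pull-down group, whose spread is taken from the other groups. Unknown depth limits all values of low members.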
